A study of Rattus norvegicus with 39 samples.

Results

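The lysine tRNA genes were followed in rat sperm small RNA across 4 doses of ethylene glycol monomethyl ether (EGME), an industrial solvent that is toxic to male germ cells. A gene was taken as a member when the deposited tRNA table named lysine as its amino acid. This gave 25 of the 402 tRNA genes in the table, 16 with the anticodon CTT and 9 with TTT (written as DNA). Genes of the same anticodon whose counts were identical in every library cannot be told apart and were treated as 1 count pattern. The 25 genes then formed 12 distinct patterns, 8 of LysCTT and 4 of LysTTT, out of 242 patterns in the whole table.

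Small RNA was sequenced from cauda epididymal sperm of 39 wild-type Fischer male rats aged 11 to 12 weeks, with 1 male per library. All males were gavaged daily for 5 days and sperm was collected 5 weeks after the last dose. The control group, EGME0, received the water vehicle (10 males). The treated groups received 50 mg/kg/d (EGME50, 10 males), 60 mg/kg/d (EGME60, 9 males) or 75 mg/kg/d (EGME75, 10 males). The libraries were run on 13 chips of 3 libraries each, and every dose was compared with the same control males.

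A transfer RNA carries an amino acid to the ribosome and pairs with the codon through the 3 bases of its anticodon. Lysine has a pair of codons, AAG and AAA: the CTT anticodon reads AAG, and the TTT anticodon reads AAA and, by wobble pairing at its first base, AAG as well. Mature sperm make little protein and much of their small RNA consists of tRNA fragments, so the counts described here are of small RNA reads placed on tRNA genes, whether whole tRNA or fragment.

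The tRNA table held between 134381 and 12140012 counts per library. After identical patterns were merged the tRNA total ran from 52085 to 5545434, of which 550 to 63229 were lysine counts. Levels are given as counts per 1000000 merged tRNA counts (CPM), not divided by gene length, which the table does not give. The shallowest libraries were EGME75 replicate 24, with 550 lysine counts, and EGME0 replicate 33, with 795. A pattern at 0 in them could have had up to 57.6 and 16.4 CPM (3 counts, counting error only).

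The 8 LysCTT patterns were very unequal. The pattern of trna12028-LysCTT stood for 8 genes with indistinguishable counts: trna12028, trna12844, trna12848, trna12849 and trna453 on chromosome 10, trna4127 and trna7263 on chromosome 2, and trna3002 on chromosome 7. The pattern of trna6097-LysCTT stood for a gene on chromosome 6 and trna6301 on chromosome 8. In control sperm these 2 patterns made up medians of 36.7% and 58.9% of all LysCTT counts. These shares rest on counting each pattern once: with every deposited gene counted they were 70.7% and 28.1%, so their order reverses. The other 6 LysCTT patterns were 1 gene each: trna820 on chromosome 17, trna2689 on chromosome 2, trna8775 and trna8770 on chromosome 1, trna2014 on chromosome 5 and trna406 on an unplaced sequence. Among the LysTTT genes, trna10115-LysTTT stood for 6 genes: trna10115 and trna6856 on chromosome 1, trna5115 and trna783 on chromosome 13, trna10825 on chromosome 10 and trna1683 on chromosome 17. That pattern held a median of 64.2% of control LysTTT counts (91.5% with every gene counted), and the single genes trna3846 (chromosome 17), trna5177 (chromosome 2) and trna4533 (chromosome 7) held the rest.

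Counts of LysCTT, the AAG reader, rose with dose. In the control males LysCTT ran from 843 through a median of 1378 to 3434 CPM. It ran from 898 through 2472 to 6748 CPM at 50 mg/kg/d and from 2605 through 3135 to 10758 CPM at 60 mg/kg/d. At 75 mg/kg/d it ran from 3224 through 7338 to 14867 CPM. All 9 males at 60 and all 10 at 75 mg/kg/d stood above the control median. The ranges still met at the edges, since the lowest male at 75 mg/kg/d, replicate 16, was below the highest control, replicate 25.

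By edgeR's quasi-likelihood test over all 47 tested anticodons with Benjamini-Hochberg adjustment, LysCTT was higher than control by 1.79 on the log2 scale at 75 mg/kg/d (SE 0.30, adjusted p = 2.39e-06). This is a 3.47-fold difference. At 60 mg/kg/d the log2 difference was 1.31 (SE 0.30, edgeR adjusted p = 0.00404). At 50 mg/kg/d it was 0.64 (SE 0.29) and did not pass (edgeR adjusted p = 0.828, unadjusted p = 0.0352); it was 0.40 without EGME50 replicate 36 and 0.38 with the chip as a fixed block. LysCTT had the highest log2 fold change of the 47 anticodons at 60 mg/kg/d and ranked 2 from the highest at 75 mg/kg/d. Many anticodons differed at these doses: 31.9% of them passed the test at 60 mg/kg/d (14.9% higher) and 53.2% at 75 mg/kg/d (23.4% higher), against 0.0% at 50 mg/kg/d. A fitted slope put the rise over 75 mg/kg/d at 1.71 on the log2 scale (SE 0.29, edgeR adjusted p = 1.38e-05), where 48.9% of anticodons passed (21.3% higher). In sperm as a bulk sample, a change in the mix of cells and a change in RNA per cell cannot be told apart.

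The steps between neighbouring doses were not resolved for LysCTT. From 50 to 60 mg/kg/d the log2 difference was 0.67 (SE 0.30, edgeR adjusted p = 0.116), within a table where 10.6% of anticodons passed. From 60 to 75 mg/kg/d it was 0.48 (SE 0.30, edgeR adjusted p = 0.237), with an interval of 2 SE from -0.12 to 1.08, where 12.8% passed as higher. The first step passed without EGME50 replicate 36, at 0.91, or without EGME75 replicate 7, at 0.77. EGME75 replicate 7 is in neither group of that step. The second step passed without EGME60 replicate 38, at 0.77.

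LysTTT, the AAA reader, did not pass the test at any dose. It ran from 1820 through a median of 2564 to 3700 CPM in control males and from 1982 through 2624 to 6109 CPM at 50 mg/kg/d. At 60 mg/kg/d it ran from 1050 through 3128 to 3782 CPM, and at 75 mg/kg/d from 1434 through 2784 to 5468 CPM. These ranges overlapped throughout, and the lowest and the highest males were both treated.

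The edgeR log2 differences of LysTTT from control were 0.09 (SE 0.17) at 50, -0.16 (SE 0.17) at 60 and -0.29 (SE 0.17) at 75 mg/kg/d. Their edgeR adjusted p values were 0.904, 0.556 and 0.132. The interval of 2 SE at 75 mg/kg/d ran from -0.63 to 0.04, so a fall of that size was not resolved. The direction rested on the scaling: with library totals alone in place of TMM factors the value was 0.15 at 75 and 0.08 at 60 mg/kg/d. That scaling moved the median of all anticodons at 75 mg/kg/d from 0.04 to 0.46. Relative to the median anticodon, LysTTT stood at -0.34 with TMM and -0.31 with library totals, while LysCTT stood at 1.75 and 1.79. Without EGME75 replicate 39, the highest LysTTT library of its group, the fall at 75 mg/kg/d was -0.42 and passed (edgeR adjusted p = 0.0252); without each other library in turn it did not pass.

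**Figure D1:**
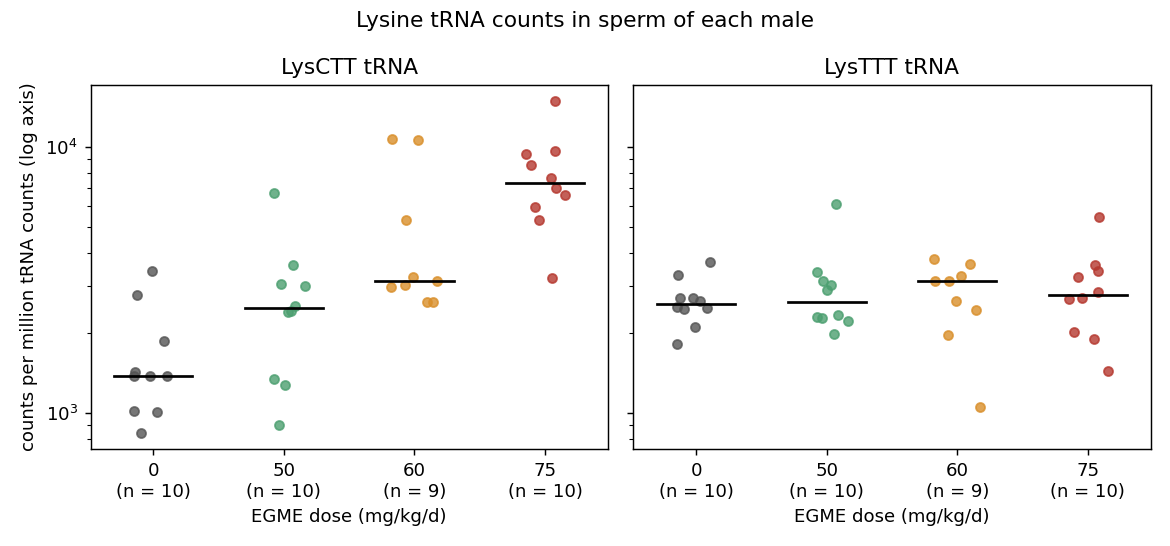
LysCTT and LysTTT CPM (log axis) for each male by EGME dose; points are males and bars are group medians. The LysCTT median goes from 1378 in control to 7338 at 75 mg/kg/d, while LysTTT medians lie between 2564 and 3128.

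Taking both anticodons together, lysine tRNA counts rose from a control median of 4217 CPM (range 3199 to 5548) to 10065 CPM (range 6833 to 17719) at 75 mg/kg/d. Every male at 75 mg/kg/d was above every control male, which held for 9.52% of the 21 amino acid sums in either direction. The sums at 50 and 60 mg/kg/d, with medians of 5050 and 6227 CPM, overlapped the control range. The log2 difference was 0.80 at 75 mg/kg/d (SE 0.14, edgeR adjusted p = 5.47e-06) and 0.54 at 60 mg/kg/d (SE 0.14, edgeR adjusted p = 0.00592). At 50 mg/kg/d it was 0.35 (SE 0.14, edgeR adjusted p = 0.322). Of all amino acid sums, 57.1%, 28.6% and 0.0% passed at 75, 60 and 50 mg/kg/d, and lysine ranked 2, 2 and 1 from the highest. With library totals alone the log2 differences were 1.33 at 75 and 0.85 at 60 mg/kg/d, and the median amino acid at 75 mg/kg/d went from 0.07 to 0.56. Lysine relative to that median was 0.73 with TMM and 0.76 with library totals.

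The balance between the 2 lysine anticodons, taken within each library, differed from control at 60 and 75 mg/kg/d. No scaling between libraries can move this measure. LysCTT was a median of 31.9% of lysine counts in control males (range 25.6% to 61.9%), 46.9% at 50, 60.8% at 60 and 75.9% at 75 mg/kg/d (range 47.2% to 83.9%). LysTTT therefore held most lysine counts in the median control male and LysCTT in the median male at 60 and at 75 mg/kg/d. The ranges overlapped between control and each dose.

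The log2 ratio of LysCTT to LysTTT averaged -0.79 ± 0.74 (SD, n = 10) in control and 1.40 ± 0.86 (SD, n = 10) at 75 mg/kg/d. The difference of 2.19 had a two-sided permutation p of 1.4e-04, or 4.2e-04 adjusted over the 3 dose comparisons. At 60 mg/kg/d the mean was 0.67 ± 0.86 (SD, n = 9), a difference of 1.46 with an exact permutation p of 0.00158 (adjusted 0.00237). At 50 mg/kg/d the mean was -0.26 ± 0.93 (SD, n = 10), and the difference of 0.53 did not pass (permutation p = 0.173, adjusted 0.173), and was 0.33 without EGME50 replicate 36. With the chip as a block the 3 differences were 1.91, 1.29 and 0.31 at 75, 60 and 50 mg/kg/d.

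**Figure D2:**
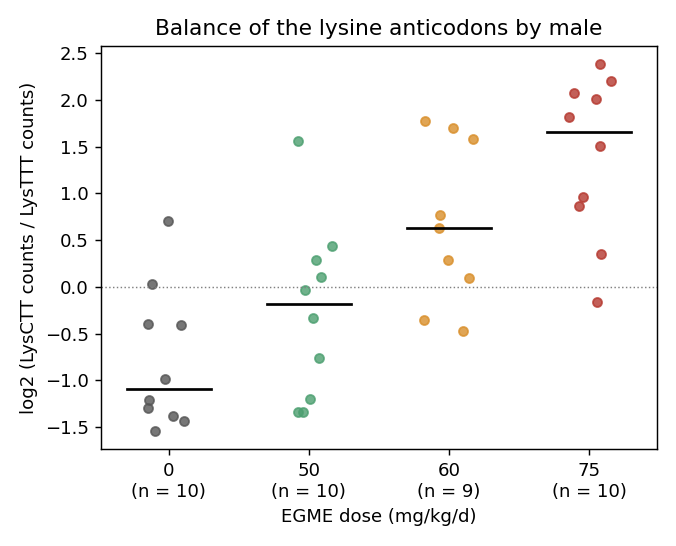
Log2 ratio of LysCTT to LysTTT counts in each male by EGME dose; points are males, bars are group medians and the dotted line marks equal counts. The mean goes from -0.79 in control to 1.40 at 75 mg/kg/d, and only the lowest male of that group lies under the line.

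Chips that carried both a control and a treated library gave the same direction for LysCTT at 75 mg/kg/d in all 6 chips, with log2 CPM differences from 1.23 to 3.19 and a median of 2.28. CPM is scaled by library totals alone. With that scaling edgeR put LysCTT at 2.25 and the median of all anticodons at 0.46 at 75 mg/kg/d. The share of all anticodons higher in every chip was not counted. LysCTT was higher than the control on the same chip in 5 of 6 chips at 50 and in 4 of 5 at 60 mg/kg/d. For LysTTT the treated library was higher in 4 of 6, 3 of 5 and 3 of 6 chips at 50, 60 and 75 mg/kg/d.

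Of the 12 lysine patterns, 10 passed the filter on low counts (6 LysCTT and 4 LysTTT). Only trna8770 and trna2014, with mean counts of 4.56 and 0.872 per library, did not; together they held 0.0309% of lysine counts. At 75 mg/kg/d 5 of the 6 LysCTT patterns tested rose and 2 of the 4 LysTTT patterns fell by the edgeR test. Over all 190 patterns 64.7% passed at this dose, 36.8% higher and 27.9% lower, so 7 of 10 is near the background share and the direction by anticodon is the description given here. Distinct patterns of an anticodon may share reads, so they may not be separate measurements of it. At 60 mg/kg/d 5 LysCTT patterns rose and no LysTTT pattern passed, where 21.6% of all patterns passed (18.9% higher). At 50 mg/kg/d no pattern passed with edgeR (0.0%) or DESeq2, and 15 of the 190 were under an unadjusted p of 0.05. Over the slope on dose 6 lysine patterns rose and 2 fell, against 61.1% of all patterns passing (37.9% higher and 23.2% lower). The median log2 difference at 75 mg/kg/d was 1.03 over the 10 lysine patterns and 0.16 over all patterns.

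The 8-gene pattern of trna12028-LysCTT had medians of 527, 1051, 1210 and 3085 CPM at 0, 50, 60 and 75 mg/kg/d. Control males ran from 242 to 1325 CPM and males at 75 mg/kg/d from 1308 to 6742 CPM, so the ranges touched only at the edge. Its log2 difference was 2.23 at 75 mg/kg/d (SE 0.33, edgeR adjusted p = 4.02e-07) and 1.61 at 60 mg/kg/d (SE 0.32, edgeR adjusted p = 0.000327).

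The pair of genes under trna6097-LysCTT, the larger LysCTT pattern in the median control male when each pattern is counted once, had medians of 807, 1382, 1822 and 3959 CPM. Control males ran from 534 to 2062 CPM and males at 75 mg/kg/d from 1726 to 7210 CPM, with overlap. The log2 difference was 1.87 at 75 mg/kg/d (SE 0.33, edgeR adjusted p = 7.63e-06) and 1.41 at 60 mg/kg/d (SE 0.33, edgeR adjusted p = 0.00198), or 0.94 without EGME60 replicate 38 (edgeR adjusted p = 0.0229). Both large patterns moved in the same direction, and the share of LysCTT counts held by trna12028 went from a median of 36.7% in control to 42.2% at 75 mg/kg/d. How reads matching several genes were placed is not given, so some reads may be counted in both patterns.

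The single gene trna820-LysCTT on chromosome 17 was the lysine pattern whose control and highest-dose males did not overlap. Its CPM ran from 31.3 through a median of 52.7 to 126 in control males and from 37.6 through 65.0 to 115 at 50 mg/kg/d. It ran from 42.3 through 87.6 to 325 at 60 mg/kg/d and from 165 through 280 to 873 at 75 mg/kg/d. Every male at 75 mg/kg/d was above every control, a separation in either direction that held for 6.32% of all patterns at that dose. The log2 difference was 2.20 at 75 mg/kg/d (SE 0.31, edgeR adjusted p = 2.31e-07) and 1.08 at 60 mg/kg/d (SE 0.31, edgeR adjusted p = 0.00817). The step from 60 to 75 mg/kg/d also passed, at 1.12 (SE 0.31, edgeR adjusted p = 0.00618), where 32.1% of patterns did (14.2% higher); no other lysine pattern passed at that step. The call at 60 mg/kg/d was lost without EGME60 replicate 38 (0.69, edgeR adjusted p = 0.0804) and with the chip as a fixed block (0.91, edgeR adjusted p = 0.0514).

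Of the scarce LysCTT genes, 2 rose. The first, trna406, on an unplaced sequence, had medians of 2.51, 3.88, 9.73 and 17.3 CPM and rose by 2.29 at 75 mg/kg/d (SE 0.32, edgeR adjusted p = 2.31e-07) and 1.75 at 60 mg/kg/d (SE 0.32, edgeR adjusted p = 0.000179). trna2689 had medians of 1.54, 2.11, 4.65 and 6.78 CPM and rose by 1.30 at 75 mg/kg/d (SE 0.31, edgeR adjusted p = 0.000342). Its rise of 0.99 at 60 mg/kg/d (SE 0.30, edgeR adjusted p = 0.0133) was lost when all deposited genes were kept unmerged (0.73, adjusted p = 0.0738) and without any 1 of 6 libraries: EGME50 replicate 36, EGME60 replicate 38, or EGME75 replicate 7, 24, 31 or 40 (0.54 to 0.70). Only EGME60 replicate 38 of these is in the groups compared. Without EGME50 replicate 36, trna10115 also went from 0.10 to -0.14, trna3846 from -0.35 to -0.59 and trna4533 from -0.34 to -0.58. The change was thus not particular to trna2689, and its cause was not tested. trna8775 was 0.76 higher at 75 mg/kg/d (SE 0.35, edgeR adjusted p = 0.0556) and did not pass at any single dose, but did over the slope (0.84, SE 0.33, edgeR adjusted p = 0.0261). Its calls depended on the setting. At 75 mg/kg/d it passed with library totals alone (1.05), limma-voom (0.99), the tRNA total as a covariate (0.84) and without EGME0 replicate 1 or 9, EGME50 replicate 35, EGME60 replicate 6 or EGME75 replicate 8 or 16 (0.75 to 0.91). At 60 mg/kg/d it passed with the chip as a fixed block (1.17) and without EGME0 replicate 1 or 9, EGME50 replicate 35 or EGME60 replicate 6 or 13 (0.84 to 0.99). Its slope did not pass in 9 of 47 alternatives (0.45 to 0.85): DESeq2, no filter, the chip as a fixed block, and without EGME50 replicate 36, EGME60 replicate 38, or EGME75 replicate 7, 24, 31 or 40. These genes were at 0 in at least 1 library, including EGME75 replicate 24, which limits their precision.

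Among the LysTTT genes, trna3846 fell by 0.68 at 75 mg/kg/d (SE 0.16, edgeR adjusted p = 0.000248) and trna4533 fell by 0.63 (SE 0.16, edgeR adjusted p = 0.000807). In CPM, trna3846 ran from 188 through a median of 323 to 483 in control and from 121 through 253 to 372 at 75 mg/kg/d. trna4533 ran from 149 through 249 to 424 in control and from 103 through 207 to 298 at 75 mg/kg/d. Groups overlapped widely for both, with 8 of 10 and 9 of 10 males at 75 mg/kg/d below the control median.

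Both calls depended on the scaling and were lost with library totals alone, at -0.44 (adjusted p = 0.0726) and -0.39 (adjusted p = 0.115). With that scaling 87 patterns passed as higher and 38 as lower, against 70 and 53. Relative to the median of all patterns, trna3846 stood at -0.85 with TMM and -0.84 with library totals, and trna4533 stood at -0.79 under both. With all genes unmerged the fall of trna4533 was -0.97. The other single gene, trna5177, was -0.27 at 75 mg/kg/d (SE 0.14, edgeR adjusted p = 0.0965). Its CPM ran from 202 through a median of 320 to 472 in control and from 176 through 333 to 398 at 75 mg/kg/d. There 6 of 10 males were above the control median. With library totals alone trna5177 was at -0.04. It passed as lower with DESeq2 (-0.32, adjusted p = 0.0290), with no filter (-0.47) and with all genes unmerged (-0.65). It also passed without any 1 of 7 libraries: EGME0 replicate 25, EGME50 replicate 36, EGME60 replicate 38, or EGME75 replicate 7, 24, 31 or 40 (-0.55 to -0.32). EGME50 replicate 36 and EGME60 replicate 38 are in neither group compared. Without either, trna5177 was at -0.48, and trna10115 went from 0.06 to -0.16. That change was thus not particular to trna5177, and its cause was not tested. The 6-gene pattern of trna10115, with medians of 1697, 1757, 2221 and 2067 CPM, was 0.06 (SE 0.17, edgeR adjusted p = 0.776), with an interval of 2 SE from -0.28 to 0.39. Its sign changed with no filter, with the chip as a fixed block and with all genes unmerged. Its share of LysTTT counts went from a median of 64.2% in control to 72.2% at 75 mg/kg/d, described without a test.

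**Figure D3:**
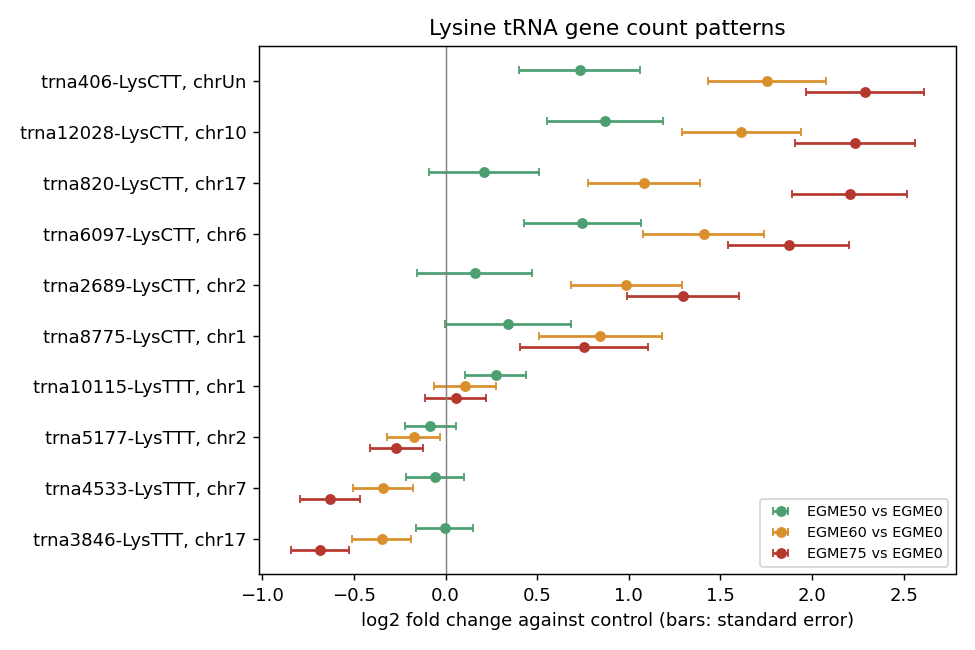
Log2 fold change against control with its standard error for the 10 lysine tRNA count patterns tested, at 50, 60 and 75 mg/kg/d. The LysCTT patterns lie to the right of 0, up to 2.29 for trna406, and the LysTTT patterns at 75 mg/kg/d lie between -0.68 and 0.06. With library totals alone trna3846 is at -0.44, trna4533 at -0.39, trna5177 at -0.04 and trna10115 at 0.34.

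Glutamate and glutamine, like lysine, are each read by a C-starting and a T-starting anticodon that share a codon box with another amino acid. GluCTC was higher by 1.77 at 75 mg/kg/d (SE 0.33, edgeR adjusted p = 1.22e-05) and GluTTC was -0.08 (SE 0.21, edgeR adjusted p = 0.796). GlnCTG was higher by 0.90 (SE 0.26, edgeR adjusted p = 0.00377) and GlnTTG was 0.23 (SE 0.21, edgeR adjusted p = 0.366). Of these 4 anticodons 2 passed at 75 mg/kg/d, both C-starting and both higher, and 1 at 60 mg/kg/d, GluCTC at 1.12 (SE 0.33, edgeR adjusted p = 0.0158). None passed at 50 mg/kg/d. Over all anticodons 53.2%, 31.9% and 0.0% passed at 75, 60 and 50 mg/kg/d, so these counts are near the background. Leucine and arginine, added after their values were seen, also have such a pair in a shared box, and there no C-starting anticodon rose. At 75 mg/kg/d LeuCAA and LeuTAA both fell by 1.45 (SE 0.24, edgeR adjusted p = 2.39e-06 for each). ArgCCT was -0.02 (SE 0.16, edgeR adjusted p = 0.901), and ArgTCT fell by 0.99 (SE 0.18, edgeR adjusted p = 1.04e-05). Within libraries the median ratio of GluCTC to GluTTC counts went from 0.0369 in control to 0.127 at 75 mg/kg/d, and that of GlnCTG to GlnTTG from 0.333 to 0.529.

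**Figure D4:**
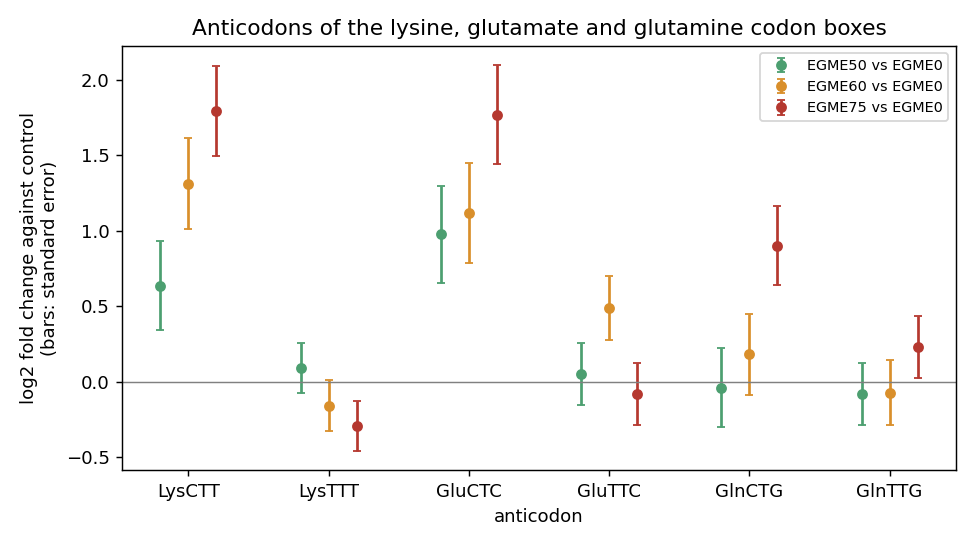
Log2 fold change against control with its standard error for the C-starting and T-starting anticodons of lysine, glutamate and glutamine at each dose. At 75 mg/kg/d LysCTT is at 1.79 and GluCTC at 1.77, GlnCTG is at 0.90, and the T-starting anticodons lie between -0.29 and 0.23 (with library totals alone LysTTT is at 0.15).

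Across the 39 libraries, the anticodons whose CPM ordered the males most like LysCTT were GluCTC (Spearman 0.88), TyrGTA (0.87) and LeuTAG (0.84). After group means were removed these were 0.77, 0.79 and 0.74. Those most like LysTTT were ThrTGT (0.71), TrpCCA (0.64) and ValTAC (0.59). LysCTT and LysTTT themselves had a Spearman correlation of 0.08. All points share their library, depth and scaling, so these are descriptions.

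Markers of germ cells and of other cells moved with dose in the same libraries. The germ cell miRNA miR-34c-5p was detected in all 39 libraries, with a control median of 45384 CPM of miRNA counts. The summed level of 6 germ cell miRNAs went from a median of 263173 CPM of miRNA counts in control (range 197624 to 330892) to 133064 at 75 mg/kg/d (range 64748 to 220530). There 4 of the 5 tested fell, where 42.9% of miRNAs passed. The germ cell miRNA miR-34b-5p had a median of 13462 CPM in control and 13698 CPM at 75 mg/kg/d. Blood cell miRNAs, 6 of 7 listed being in the table, went from a median of 1136 CPM (range 0 to 3432) to 7885 CPM (range 2478 to 48241), and all 3 tested rose. The blood miRNA miR-144-3p was at 0 in every library at 0, 50 and 75 mg/kg/d. Another on that list, miR-142-5p, was detected in 7 control libraries (median 224 CPM) and in 3 at 75 mg/kg/d (median 0 CPM). Its highest value was 452 CPM in control and 469 CPM at 75 mg/kg/d. EGME75 replicates 7 and 23 held only 995 and 807 miRNA counts, and EGME0 replicate 33 held 1098. A single count in these libraries exceeds 224 CPM, so a 0 there cannot show a fall. No direction is therefore read for miR-142-5p. The zeros of miR-144-3p and miR-1-3p have the same limit. The 9 epithelial and muscle miRNAs went from a median of 24746 CPM (range 16291 to 39182) to 69328 CPM (range 35936 to 131500), and 4 of the 6 tested rose; miR-1-3p was at 0 in every treated library. The median merged tRNA total was also lower at 75 mg/kg/d, 1.43e+06 counts against 2.76e+06 in control. With the log10 of that total as a covariate, LysCTT at 75 mg/kg/d passed against control. Its step from 60 to 75 mg/kg/d was then 0.28 (SE 0.31, edgeR adjusted p = 0.545), against 0.48 without the covariate. The total itself differed between dose groups, so this fit cannot tell depth and dose apart. The part of these markers in the lysine results was not tested.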

How the data were processed

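The authors deposited whole-number counts of sense-strand reads per feature for each library, 1 table per RNA class; the tRNA table is named for the Rnor_6.0 genome. FastQC, Bowtie and DESeq2 are named in the submitters' processing notes, with no version or role; how reads matching several genes were placed is not given in the sources used here. Per the labels' protocols, 10 ng RNA per library was used with the Ion total RNA-seq kit. Of the deposited tRNA genes, 160 with counts identical to another gene of the same anticodon were merged, and 2 without a known anticodon were left out.

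Counts were tested with edgeR 4.0.16 (quasi-likelihood, TMM, low-count filter, all 39 libraries in 1 fit; R 4.3.3) over patterns, anticodon sums and amino acid sums, with Benjamini-Hochberg adjustment at 0.05 in each table and contrast. Ratios used a pseudocount of 0.5 and 100000 or all permutations. DESeq2 1.42.0 and limma 3.58.1 were alternatives, as were RLE or library-total scaling, no filter, all genes unmerged, the chip as a block, the tRNA total as a covariate and each library left out. Members and lists were chosen with earlier results of these data known. All lysine patterns with a mean of 10 counts or more were to be described. The pattern of trna8775, with a mean of 7.59 counts, was under this limit but was tested and is also described. A script tested on simulated data ran the fits. Replicates are single males. No tRNA sequences or coordinates of this build were used here.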

Additional observations from a re-analysis of the deposited data

Results flagged for a closer look

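Libraries that stood apart from the others of their dose were sought with Dixon's test in 56 groups of lysine values, which gave 9 flags. The groups overlap, since the sums and the ratio are made of the patterns, and 1 library can be flagged several times. CPM also entered without a log scale, so the 9 flags are not set against a chance rate. EGME50 replicate 35 was high in LysTTT (6109 CPM, next 3386), in trna10115-LysTTT (4790 CPM, next 2340) and in trna8775-LysCTT (7.24 CPM, next 3.20). EGME50 replicate 36 was high in LysCTT (6748 CPM, next 3594), in trna12028-LysCTT (2407 CPM, next 1425) and in trna6097-LysCTT (4204 CPM, next 2026). EGME75 replicate 7 was high in trna12028-LysCTT (6742 CPM, next 4205) and in trna820-LysCTT (873 CPM, next 411). EGME75 replicate 39 was high in trna10115-LysTTT (4450 CPM, next 2709). EGME50 replicate 35 also had the second highest LysCTT of its group, at 3594 CPM.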

How the results depend on the processing

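LysCTT kept its call at 60 and 75 mg/kg/d in every alternative run, from 1.08 to 1.58 and from 1.52 to 2.25; with 1 library left out it ran from 1.15 to 1.54 and from 1.72 to 2.02. LysTTT changed sign with library totals alone: 0.076 at 60, 0.15 at 75, 0.077 from 60 to 75 and 0.15 for the slope. With 1 library left out LysTTT ran from -0.017 to 0.13 at 50 and from -0.42 to -0.18 at 75 mg/kg/d, the sign at 50 changing without EGME50 replicate 35. LysCTT ran from 0.40 to 0.86 at 50, from 0.50 to 0.91 from 50 to 60 and from 0.38 to 0.77 from 60 to 75 mg/kg/d. trna10115-LysTTT changed sign at 60 mg/kg/d with no filter (-0.016) and all genes unmerged (-0.13), and at 75 mg/kg/d with no filter (-0.15), the chip as a fixed block (-0.00193) and all genes unmerged (-0.29); with 1 library left out it ran from -0.17 to 0.19 and from -0.22 to 0.12. trna3846-LysTTT at 50 mg/kg/d was 0.082 with the chip fixed and 0.011 with limma-voom, and ran from -0.13 to 0.037 with 1 library left out; trna2689-LysCTT there ran from -0.019 to 0.39. The cause was not tested. The number of anticodons passing at 60 mg/kg/d went from 15 to 3 with the chip fixed. At 60 mg/kg/d trna3846 and trna4533 passed as lower with DESeq2 or RLE scaling (-0.44 each) and all genes unmerged (-0.59 each), trna3846 with no filter (-0.47), and both without EGME50 replicate 36 or EGME75 replicate 7, 24, 31 or 40 (-0.59 to -0.58), trna3846 also without EGME60 replicate 38 (-0.58). trna5177 passed there with all genes unmerged (-0.43) or without EGME75 replicate 7 (-0.41). EGME50 replicate 36 and the EGME75 libraries are in neither group of the comparison at 60 mg/kg/d. Without EGME50 replicate 36 or EGME75 replicate 7, 24, 31 or 40, trna10115 there went from 0.10 to -0.14. The change was thus not particular to trna3846 and trna4533. Leaving out the 2 shallowest libraries was chosen after seeing the data. No paired analysis was possible because each replicate number belongs to a single male and none is shared between groups; libraries of the same chip were compared, and the chip was used as a block.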

Other observations

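A second deposited table, of RNAcentral entries, held 4 entries named tRNA-Lys with no anticodon given. This look at them was added after the data were seen. 1 entry had 1 count in all. Of the 3 tested at 75 mg/kg/d, 1 fell, where 37.8% of 2757 entries passed. That entry had medians of 15.1, 13.9, 10.1 and 2.53 CPM at 0, 50, 60 and 75 mg/kg/d and fell by 1.17 on the log2 scale (SE 0.45, edgeR adjusted p = 0.0361). The call was lost with the chip as a fixed block (-1.25, edgeR adjusted p = 0.0943). The other 2 had medians of 255 and 274 CPM in control and 96.0 and 111 at 75 mg/kg/d; their log2 differences of -0.49 and -0.44 did not pass (edgeR adjusted p = 0.329 and 0.386), but passed with RLE scaling (-1.33 and -1.29) and with library totals alone (-1.18 and -1.15). The median over all entries was -0.62. The calls of the other 2 entries depended on the scaling and were not set against a median for each scaling. How reads were divided between this table and the tRNA gene table is not given in the sources used here.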
